A study of Rattus norvegicus with 2 samples.

Results

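The genes described here are 10 genes known from committed precursors and newly formed oligodendrocytes, the short stage between the dividing oligodendrocyte precursor cell (OPC) and the myelin-forming oligodendrocyte of the central nervous system. They were taken by symbol from the deposited gene table as known genes of this stage, with no limit on their values but with earlier results of these data known, and all 10 were among its 17455 genes: Gpr17, Bcas1, Enpp6, Itpr2, Fyn, Sirt2, Rras2, Cnksr3, Frmd4a and Tmem108. The cells were wild-type rat OPCs transfected with vector (the control library) or with Slit1, a secreted ligand of Robo receptors, to ask how overexpressed Slit1 acts while OPCs differentiate. Total RNA was sequenced from 2 libraries, 1 per group. Age, strain, pooling and the time from transfection to harvest are not stated in the labels.

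A precursor that leaves the cell cycle passes through a premyelinating stage in which it extends branched processes, before it wraps axons. Genes of this stage come on before the major myelin proteins and several are switched off again in mature cells, so their RNA is commonly used to see cells in transition. They encode proteins of unlike kinds: a surface receptor, enzymes, signalling proteins of the Src and Ras families, an intracellular calcium channel and scaffold proteins.

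The libraries held 18817462 and 18998770 estimated read counts in control and Slit1. Slit1 itself measured 1.70 TPM (the authors' length-scaled abundance, with an equal total in each library) in control and 229.7 TPM in Slit1, a check of the labels. With 1 library in each group no difference below has a replicate check, no test was possible, and each 95% interval covers counting error in these libraries only. Levels are in TPM, which is per length, so levels of different genes can be compared. The lineage was represented in both libraries: Olig2, a factor of the whole lineage, measured 171.4 and 178.1 TPM, and Pdgfra, the receptor that marks precursors, measured 40.2 and 41.4 TPM in control and Slit1. Markers of another glial cell were also high. The 8 astrocyte markers summed to 9446 TPM in control and 10450 TPM in Slit1, led by Gfap at 4694 and 6130 TPM, and none was at 0; 2 of them, Slc1a2 (2.29-fold) and Gja1 (1.71-fold), were lower in Slit1 by at least 1.5-fold. Of 8 microglial markers, the 4 in the table summed to 0.73 and 1.24 TPM, with Itgam at 0 in control. Neuronal markers summed to 175.2 and 178.1 TPM, with all 8 detected in both libraries. Map2 (108.5 and 101.4 TPM) and Tubb3 (33.6 and 46.5 TPM) made up most of these sums, and Rbfox3 measured 4.70 and 3.23 TPM. Of the 8, 1 was lower in Slit1 by at least 1.5-fold, Nefl (1.75 and 0.67 TPM, 29.99 and 12 counts), and 0 were higher. The 7 vascular and fibroblast markers in the table summed to 27.6 and 25.1 TPM, with Cldn5 at 0 in control. Of the 4 averaging 1 TPM or more, 1 was lower by at least 1.5-fold, Flt1 (4.51 and 2.25 TPM), and 0 were higher. In FPKM neither Nefl nor Flt1 passed that limit. The part of these other cells in the results was not tested. In bulk RNA, more cells of a stage and more RNA per cell cannot be told apart.

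All 10 transitional genes were more abundant in the Slit1 library than in control. On the scale used for calls, the difference of log2(TPM + 1), 8 of the 10 reached a 1.5-fold increase and 0 a 1.5-fold decrease. Of all genes averaging 1 TPM or more, 13175 in number, 3.72% reached the increase and 4.83% the decrease. At 2-fold, 5 of the 10 were higher, against a background of 1.24%. Every member passed the floor of 1 TPM in both libraries, so none entered through the Slit1 library alone. The median difference over the 10 genes was 1.12, and over all 13175 genes it was -0.05. Other scalings changed the balance of calls over all genes, from 43.5% on the higher side in TPM to 54.6% in FPKM, 52.5% in counts scaled to the library total (CPM), 53.8% with edgeR TMM factors and 54.3% with the median gene set to 0, and under each of these all 10 members stayed above 0.

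**Figure D1:**
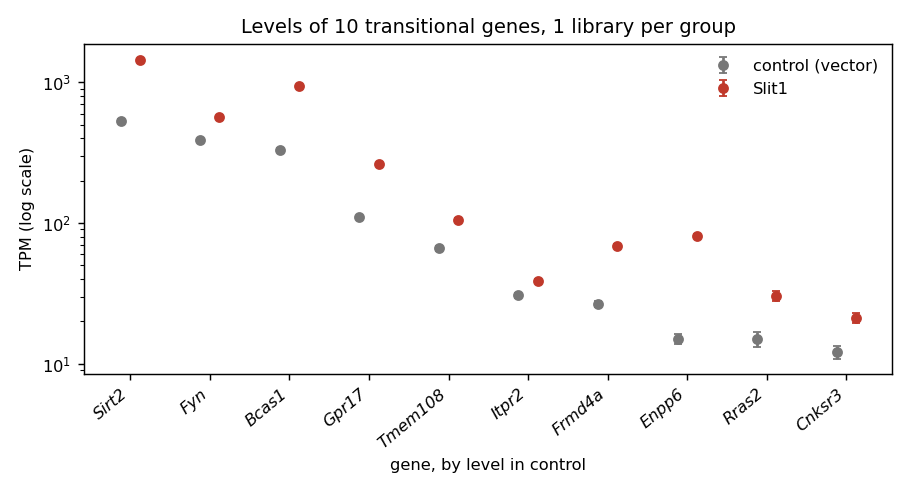
Level of each transitional gene in TPM (log axis) in the control library (grey) and the Slit1 library (red), ordered by level in control. Points are single libraries and bars are 95% Poisson intervals of the counts, many smaller than the point; every red point lies above its grey one, from 21.1 against 12.1 TPM in Cnksr3 to 1448 against 535.6 TPM in Sirt2.

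Gpr17 (NCBI gene 767613) encodes an orphan G protein-coupled receptor that appears in late precursors and premyelinating cells and restrains their final maturation. It measured 109.8 TPM (5219 counts) in control and 263 TPM (13016 counts) in Slit1. The Slit1 value was 2.40 times the control value (interval 2.32 to 2.47), and by log2 difference the gene stood at rank 102 of the 13175. In RefSeq's gene table of the assembly GRCr8, Gpr17 lies within the span of Lims2, which had 18.98 and 48.4 counts, few beside those of Gpr17. Measured relatives of the receptor were scarce. Of 8 purinergic and cysteinyl leukotriene receptors, 6 were in the table. Of these, 3 passed the floor of 1 TPM, and 0 of the 3 differed by 1.5-fold. P2ry1, an ADP receptor, measured 18.98 and 16.4 TPM, P2ry2 measured 2.43 and 1.97 TPM, and P2ry6, a UDP receptor, measured 6.14 and 8.23 TPM.

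The enzymes Enpp6 and Sirt2 were both higher by more than 2-fold. Enpp6 (gene 306460) encodes a choline phosphodiesterase that is on in newly formed oligodendrocytes and low in precursors and in old myelinating cells. It measured 15.02 TPM (587 counts) in control and 81.2 TPM (3392 counts) in Slit1, 5.41 times as much (interval 4.95 to 5.91), at rank 11 of 13175. This was the largest ratio of the 10, and its interval did not overlap that of the next gene. Sirt2 (gene 361532), an NAD-dependent deacetylase of tubulin and other proteins that is found in myelin, was the most abundant of the 10 in both libraries. Its level was 535.6 TPM (8109 counts) in control and 1448 TPM (22846 counts) in Slit1, a ratio of 2.70 (interval 2.64 to 2.77), and among all genes of the table it stood at rank 257 by level in control and at rank 65 in Slit1.

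Relatives of these enzymes were read beside them. None of the other 6 sirtuins, all measured, was 1.5-fold higher or lower. The one that differed most was Sirt6, a nuclear deacetylase, with 39.3 and 50.5 TPM (ratio 1.29, interval 1.15 to 1.44), and Sirt5, a mitochondrial deacylase, measured 75.1 and 67.5 TPM. Sirt2 was 7.13 times as abundant as Sirt5 in control (interval 6.65 to 7.65) and 21.4 times as abundant in Slit1 (interval 19.999 to 23.0). Of the 4 other ENPP genes that passed the floor, 1 was 1.5-fold higher: Enpp2 (autotaxin), which makes lysophosphatidic acid and is also made by oligodendrocytes, measured 32.8 and 50.5 TPM (ratio 1.54, interval 1.41 to 1.67). Enpp4 and Enpp5 measured 14.99 and 12.7 TPM, and 67.2 and 71.9 TPM.

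The 3 signalling genes differed by less than Enpp6 and Sirt2. Fyn (gene 25150) encodes the Src family kinase that acts downstream of axonal contact, promotes process outgrowth and allows local translation of myelin basic protein. Its level was 388.4 TPM (9458 counts) in control and 563.6 TPM (14827 counts) in Slit1. The ratio of 1.45 (interval 1.41 to 1.49) fell just short of the 1.5-fold limit. It was past the limit on the scale of calls in 2 of 11 scalings and settings, CPM and edgeR TMM factors, where the ratio was 1.55 and 1.56. The 11 include the reported setting and changes of the floor, which cannot alter a member's value. Rras2 (gene 365355), a Ras-related GTPase that signals to phosphoinositide 3-kinase, measured 14.9 TPM (285 counts) and 30.5 TPM (606 counts), a ratio of 2.04 (interval 1.77 to 2.36). Cnksr3 (gene 308113), a member of the scaffold family that connects Ras to kinase signalling, had the lowest level of the 10, at 12.1 TPM (344.6 counts) in control and 21.1 TPM (624.9 counts) in Slit1, a ratio of 1.74 (interval 1.53 to 1.99).

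Other Src and Ras family genes were mostly at similar or lower levels in Slit1. Of 8 measured Src family kinases and Fyn regulators that passed the floor, 0 were 1.5-fold higher and 1 was lower: Yes1, a close relative of Fyn, measured 39.98 and 21.8 TPM, which is 1.83-fold lower in Slit1 (interval 1.68 to 1.999). Src measured 181.8 and 165.6 TPM, Lyn 25.3 and 20.2 TPM, and Csk, the kinase that inhibits the family, 64.6 and 74.1 TPM. Fyn was therefore 2.14 times as abundant as Src in control (interval 2.07 to 2.21) and 3.40 times as abundant in Slit1 (interval 3.30 to 3.51). Among 8 targets and partners of Fyn, 1 was higher and 1 lower by 1.5-fold. Mapt, the microtubule protein tau, measured 31.3 and 57.9 TPM (ratio 1.85, interval 1.73 to 1.97). Arhgap5, a GTPase-activating protein, was 1.59-fold lower (interval 1.52 to 1.66), while its relative Arhgap35 measured 104.3 and 135.7 TPM (ratio 1.30, interval 1.26 to 1.34). Hnrnpa2b1, which encodes the RNA-binding protein that carries Mbp RNA, measured 831.2 and 797.2 TPM.

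Of 7 other Ras and Rap GTPase genes described here, 6 had differences below 0 in TPM, FPKM, CPM, with edgeR TMM factors and with the median gene set to 0. On the TPM scale 1 of them was past 1.5-fold, Rap1b, with 336.5 and 220.2 TPM (1.53-fold lower in Slit1, interval 1.47 to 1.59). Under each other scaling 0 were past the limit. Nras was 1.41-fold lower in TPM (152.6 and 108.3 TPM), with 4501 and 3727 counts. The length implied by its counts and FPKM was 3411 bases in control and 3823 bases in Slit1. The part of length in its TPM difference was not tested. Rras, a relative of Rras2, measured 191.7 and 231.6 TPM. Of 8 scaffold and polarity genes that passed the floor, 3 were 1.5-fold higher in TPM and 0 lower, and 2 were higher in FPKM, in CPM and with edgeR TMM factors. The 3 were Frmd4b, the relative of Frmd4a (7.75 and 13.8 TPM, ratio 1.78, interval 1.56 to 2.03), Frmd5 (13.4 and 21.3 TPM, ratio 1.58, interval 1.43 to 1.75) and Pard6a, a cell polarity protein (8.24 and 12.9 TPM, ratio 1.57, interval 1.20 to 2.07). Arf6, a GTPase of membrane traffic on which cytohesins act, was 1.34-fold lower (166.8 and 124.9 TPM).

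Itpr2 (gene 81678) encodes an inositol trisphosphate receptor, a channel that releases calcium from the endoplasmic reticulum, and marks cells that have just committed to differentiate. It measured 30.6 TPM (3146 counts) in control and 38.8 TPM (4167 counts) in Slit1. The ratio of 1.27 (interval 1.21 to 1.33) was the smallest of the 10, at rank 1322 of 13175. Under none of the same 11 scalings and settings did it reach 1.5-fold. It was the main receptor of its family in both libraries: Itpr1 measured 2.25 and 1.51 TPM, and Itpr3 0.78 and 0.70 TPM. Of 10 other genes of calcium stores that passed the floor, 0 were 1.5-fold higher and 1 lower, Plcb1, a phospholipase that makes inositol trisphosphate (9.98 and 5.98 TPM, 1.67-fold lower, interval 1.47 to 1.90; in FPKM it did not pass). Orai1, a plasma membrane channel that refills the stores, measured 32.6 and 45.6 TPM, and its sensor Stim1 23.6 and 27.9 TPM.

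The remaining 3 genes encode membrane and scaffold proteins. Bcas1 (gene 246755), a cytoplasmic protein that marks early myelinating cells, measured 331.6 TPM (7176 counts) in control and 939.2 TPM (21016 counts) in Slit1, a ratio of 2.83 (interval 2.76 to 2.91), at rank 61. Frmd4a (gene 307128), a FERM domain scaffold that links the polarity protein Par3 to cytohesin, measured 26.5 TPM (1421 counts) and 68.7 TPM (3707 counts), a ratio of 2.59 (interval 2.44 to 2.76), at rank 83. Tmem108 (gene 300967), a transmembrane protein studied mainly in neuronal endosomes, measured 66.2 TPM (2161 counts) and 104.6 TPM (3522 counts). Its ratio of 1.58 had an interval that reached just below the limit (1.498 to 1.67). Tmem108 and Fyn were thus the members nearest to the limit on either side.

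**Figure D2:**
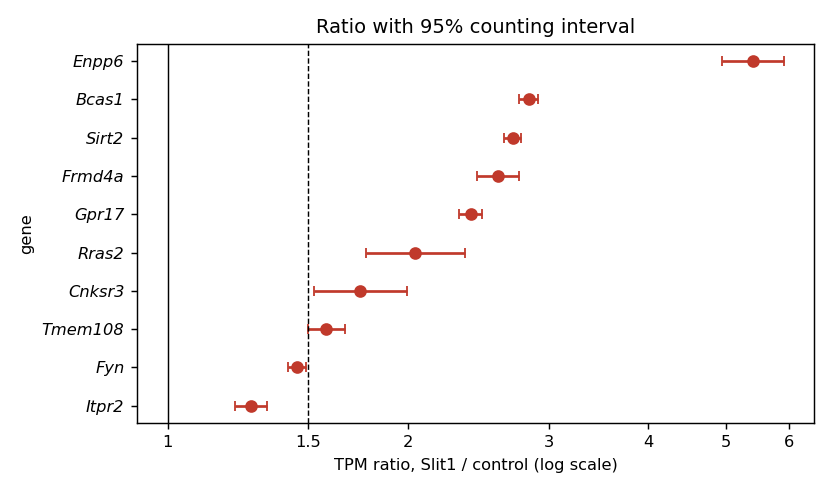
Ratio of TPM, Slit1 over control, for each transitional gene on a log axis, with the 95% counting interval as bars. The solid line marks a ratio of 1 and the dashed line 1.5; Enpp6 stands apart at 5.41, and Fyn (1.45) and Itpr2 (1.27) lie left of the dashed line.

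In TPM, the size of the difference set apart a single gene at the top and 2 at the bottom. Enpp6 lay above all others, and Fyn and Itpr2 had intervals that overlapped neither each other nor those of the genes above them. Between these, the intervals of adjacent genes overlapped in the order Bcas1, Sirt2, Frmd4a, Gpr17, Rras2, Cnksr3, Tmem108. Genes further apart in it could be separated: the intervals of Bcas1 and Sirt2 lay wholly above that of Gpr17, and that of Gpr17 above those of Cnksr3 and Tmem108. The gap between Fyn and Tmem108 was narrow, with facing interval ends of 1.489 and 1.498 in TPM. Their ratios were closer in CPM (1.55 and 1.61) and with edgeR TMM factors (1.56 and 1.63), where intervals were not computed. The order of levels also differed between the libraries. In control it ran Sirt2, Fyn, Bcas1, Gpr17, Tmem108, Itpr2, Frmd4a, Enpp6, Rras2, Cnksr3, and the levels of Enpp6 and Rras2 did not differ beyond counting error (ratio 1.01, interval 0.872 to 1.16). In Slit1 Bcas1 stood above Fyn, and Enpp6 and Frmd4a stood above Itpr2. The 10 genes together made up 1531 TPM in control and 3559 TPM in Slit1, and Sirt2, Bcas1 and Fyn were the largest parts. The share of Fyn in that sum was 25.4% in control and 15.8% in Slit1, while Sirt2 made up 35.0% and 40.7% and Bcas1 21.7% and 26.4%.

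**Figure D3:**
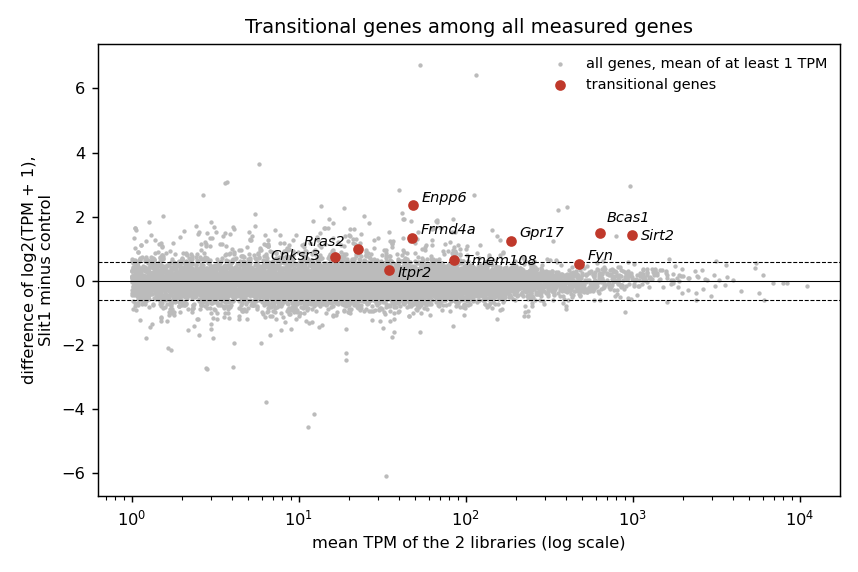
Difference of log2(TPM + 1), Slit1 minus control, against the mean TPM (log axis) for the 13175 genes averaging 1 TPM or more (grey) and the 10 transitional genes (red, named). Dashed lines mark 1.5-fold; all 10 genes lie above 0 and 8 lie above the upper dashed line.

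The length by which the authors' FPKM values were divided can be read from counts and FPKM, and shows whether the same length stood behind the values of both libraries. As a log2 ratio of Slit1 over control with the median gene at 0, this implied length lay between -0.05 (Frmd4a) and 0.05 (Fyn) over the 10 genes. The middle 95% of 11975 genes with at least 50 counts per library lay between -0.11 and 0.12. For Fyn the implied length was 2817 bases in control and 2923 bases in Slit1, and for Gpr17 it was 5500 bases in both. Sirt2 overlaps LOC103689966 in GRCr8, which had 161.1 and 84.98 counts, few beside those of Sirt2. The other annotated genes that overlap members there are noncoding RNAs and pseudogenes that were not analysed here.

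Transitional genes outside the set were also mostly higher. Of 22 other genes of this stage, all in the table, 20 passed the floor. Of these 13 were at least 1.5-fold higher and 0 lower, with a median difference of 0.77. Lims2, whose span holds Gpr17, is among the 13 (1.16 and 2.91 TPM), and without it 12 of 19 were higher, with a median of 0.74; the part of Gpr17 reads in its count was not tested. This list was put together with earlier results of these data known. Tmem163, a zinc transporter, measured 5.73 and 31.5 TPM (ratio 5.50, interval 4.39 to 6.96), Bmp4, a secreted morphogen, 27.9 and 104.3 TPM, Plxnb3, a semaphorin receptor, 29.0 and 105.9 TPM, and Chn2, a Rac GTPase-activating protein, 30.9 and 99.2 TPM. Tmem163 and Enpp6 thus had ratios whose intervals overlapped. The list was not uniform. Slc12a2, a chloride cotransporter, was 1.51-fold lower as a TPM ratio (65.6 and 43.5 TPM, interval 1.43 to 1.59), Cemip2 measured 33.4 and 28.4 TPM, and Casr and Gp1bb lay below the floor, with Gp1bb at 1.28 and 3.17 counts.

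Genes of the stages before and after gave a frame for these values. Of 16 precursor genes, 2 were 1.5-fold higher and 3 lower (1 or 2 lower under each other scaling), with a median of 0.05. The higher ones were Matn4 (ratio 2.59, interval 1.94 to 3.48) and Vcan, which encodes versican (22.7 and 40.05 TPM), and among those lower were Gria3, a glutamate receptor subunit gene (62.5 and 37.9 TPM), and Xylt1, which starts the sugar chains of proteoglycans (67.6 and 43.4 TPM). Of 18 mature genes, 16 were in the table and 11 passed the floor, of which 10 were higher and 0 lower, with a median of 1.54; Mog passed only through the Slit1 library (3.88 and 33.4 counts). Late genes Mobp, Mal, Ermn, Hapln2 and Ppp1r14a were all below 1 TPM in both libraries, and Aspa, an enzyme of mature cells, measured 12.2 and 10.7 TPM. Differences between these lists were not tested.

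**Figure D4:**
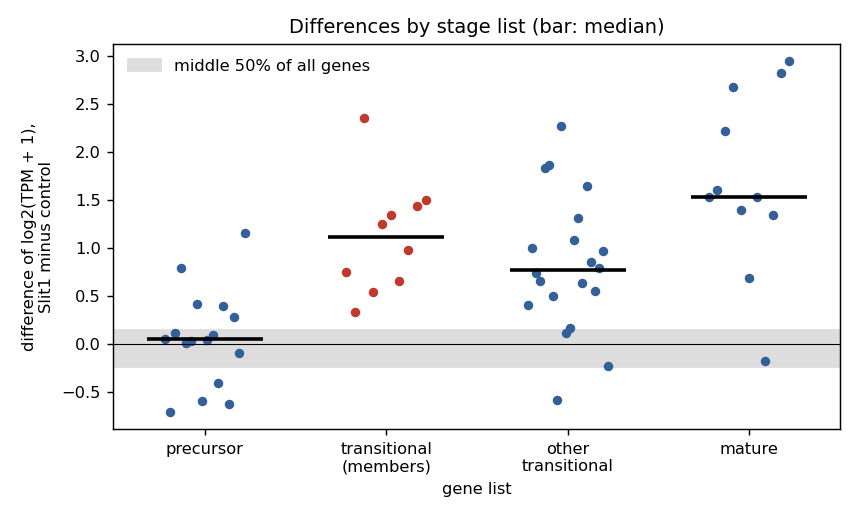
Difference of log2(TPM + 1), Slit1 minus control, for the genes of 4 stage lists that passed the floor of 1 TPM; each point is a gene, black bars are list medians and the grey band holds the middle 50% of all genes. Medians are 0.05 for precursor genes, 1.12 for the 10 transitional genes (red), 0.77 for other transitional genes and 1.54 for mature genes.

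Ratios of levels within a library do not depend on how libraries are scaled to each other. Gpr17 stood at 2.73 times the level of Pdgfra in control (interval 2.59 to 2.87) and at 6.36 times in Slit1 (interval 6.08 to 6.64). Enpp6 stood at 0.373 times the level of Pdgfra in control (interval 0.340 to 0.409) and at 1.96 times in Slit1 (interval 1.86 to 2.07), so that it lay below the precursor receptor in the first library and above it in the second. Mbp, the myelin basic protein gene, was below Bcas1 in control, at 0.665 times its level (interval 0.639 to 0.692), and above it in Slit1, at 1.81 times (interval 1.78 to 1.85). Against Enpp6 the change was smaller: Mbp was 14.7 times as abundant in control (interval 13.5 to 16.0) and 21.0 times in Slit1 (interval 20.3 to 21.8). All levels were also taken relative to Olig2 or to Pdgfra, a comparison chosen after seeing the data. Then 8 of the 10 members were 1.5-fold higher, with median differences of 1.06 and 1.08. The ratios of Olig2 and Pdgfra themselves were 1.04 and 1.03. Every member was thus shifted by the same small amount, and the count gives no separate support.

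Promoter windows of 300 bases (250 before to 50 after the annotated start, RefSeq, assembly GRCr8) were matched by symbol for 9 of the 10 genes, all but Bcas1. Windows are shown for the members with the largest (Enpp6) and the smallest ratios (Fyn and Itpr2), and for Frmd4a, chosen after its composition was seen, as a second member with a large ratio and few CpG dinucleotides. Capitals mark CAGCTG (an E-box of the kind bound by basic helix-loop-helix factors), ACAAAG and AACAAT (cores read by SOX factors) and GGGCGG (a GC box), on either strand; no motif overlaps another.
Enpp6, chr16:52026679-52026978, minus strand: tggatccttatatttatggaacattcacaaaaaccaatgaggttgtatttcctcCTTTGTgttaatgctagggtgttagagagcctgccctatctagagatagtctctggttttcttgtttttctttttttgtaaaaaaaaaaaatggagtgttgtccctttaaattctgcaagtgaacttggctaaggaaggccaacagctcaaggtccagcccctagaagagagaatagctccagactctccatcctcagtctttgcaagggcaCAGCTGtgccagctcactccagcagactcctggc
Frmd4a, chr17:78855827-78856126, minus strand: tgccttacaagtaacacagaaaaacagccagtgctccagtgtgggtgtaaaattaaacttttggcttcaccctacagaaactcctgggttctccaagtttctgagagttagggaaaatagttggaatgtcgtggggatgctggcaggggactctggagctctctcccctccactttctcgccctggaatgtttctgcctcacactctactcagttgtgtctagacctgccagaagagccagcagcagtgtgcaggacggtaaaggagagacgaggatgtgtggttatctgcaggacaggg
Fyn, chr20:44322414-44322713, plus strand: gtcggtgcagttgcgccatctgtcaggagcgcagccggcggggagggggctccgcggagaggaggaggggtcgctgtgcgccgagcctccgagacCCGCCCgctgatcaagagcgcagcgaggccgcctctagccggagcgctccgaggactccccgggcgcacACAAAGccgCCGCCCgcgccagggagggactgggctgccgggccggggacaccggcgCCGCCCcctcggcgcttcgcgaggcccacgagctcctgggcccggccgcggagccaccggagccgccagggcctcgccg
Itpr2, chr4:181134818-181135117, minus strand: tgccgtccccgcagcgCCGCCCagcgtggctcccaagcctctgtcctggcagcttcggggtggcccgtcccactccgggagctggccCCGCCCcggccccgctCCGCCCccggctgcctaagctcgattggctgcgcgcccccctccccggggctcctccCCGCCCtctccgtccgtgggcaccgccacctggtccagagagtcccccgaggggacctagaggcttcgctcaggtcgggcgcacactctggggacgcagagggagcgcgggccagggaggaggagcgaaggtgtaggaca

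The Enpp6 window held 0 CpG dinucleotides at 43.3% G and C, and the Frmd4a window 4 at 50.7%. The Fyn window held 42 CpG at 78.0% G and C and the Itpr2 window 29. The median over 33469 promoter windows was 7 CpG and 51.7% G and C. The division was not general, since Sirt2, with a ratio of 2.70, had 19 CpG, and its observed over expected CpG of 0.961 was above that of Fyn (0.921). Gpr17 had 8 CpG, Rras2 22, Cnksr3 27 and Tmem108 36. The E-box CAGCTG was found in 1 of 9 member windows, Enpp6, against 15.1% of all windows. ACAAAG was found in 3 of 9 (Enpp6, Fyn, Tmem108), against 18.8%, and AACAAT in 0 of 9, against 11.7%. GC boxes were found in 5 of 9 (Itpr2, Fyn, Rras2, Cnksr3, Tmem108), against 33.1%. These are matches of letters in 1 annotated start per gene, and the start used in these cells was not tested.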

How the data were processed

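The authors deposited 1 table of 17455 genes with FPKM, TPM and read counts for 2 libraries, per the file headers. The deposited TPM values sum to 1000000 per library, and the FPKM values the authors gave sum to 459452 in control and 473673 in Slit1. The deposited read counts are estimated counts: a whole number was met within 0.01 by 26.1% of them in control and by 31.4% in Slit1. The build was mRatBN7.2, per the submitters' processing notes. For the aligner, counter, annotation and strand handling, nothing is given in the sources used here. Columns of other samples numbered 0.

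Libraries were compared as log2(TPM + 1), Slit1 minus control, over genes averaging 1 TPM or more; the pseudocount of 1 understates changes of low genes. Ratios are of TPM, with exact (Clopper-Pearson) 95% intervals for 2 Poisson counts, from counts rounded to whole numbers. A gene was called at 1.5-fold. With 1 library per group no p-value was computed. The members, gene lists and limits were chosen with earlier results of these data known. The text names all 10 members and up to 4 genes per other list by largest absolute difference; others named were chosen after their values were seen. Members enter by symbol. A single list gene was left out and is not reported here. The calculation was tested on simulated counts that held counting error only. It cannot speak to the spread between cultures. Tools were Python 3.11.15, scipy 1.17.1 and, for TMM factors, edgeR 4.0.16.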

Additional observations from a re-analysis of the deposited data

How the results depend on the processing

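At a fold limit of 2 in place of 1.5, 5 of the 10 members, 7 other transitional genes and 1 precursor gene were higher, since fewer genes reach the larger limit. Under the other 11 alternatives the number of members higher lay between 7 (counting interval wholly beyond 1.5-fold) and 9 (CPM and edgeR TMM factors). The median difference, recomputed under 10 alternatives, lay between 1.03 (pseudocount 5) and 1.17 (edgeR TMM factors). Under all 12 alternatives 0 members were lower. Of 80 recomputed member ratios, 0 were at or below 1 and 14 lay outside the counting interval of the reported ratio, in Bcas1, Enpp6, Frmd4a, Fyn, Gpr17 and Sirt2. The alternatives and ratios counted here include those with no floor and with a floor of 5 TPM. Every member passed both, so neither could change a member's ratio or the members' count and median. No paired analysis was possible because each group holds 1 library, and for the same reason no library could be left out. Depth set wide intervals for Rras2 and Cnksr3, with 285 and 344.6 counts in control. The spread between cultures is not known.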
